A study of Mus musculus with 8 samples.

Results

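The genes described here are 7 feedback regulators and effectors of cytokine signalling in conventional CD4 T cells of the inflamed mouse brain and spinal cord: the suppressors of cytokine signalling Socs1, Socs2, Socs3 and Cish, and the kinases Pim1, Pim2 and Pim3. They were chosen by symbol, with earlier results of these data known, and all 7 were found among the 32285 gene features of the 4 RNA libraries. Cytokines bind receptors that carry Janus kinases (JAKs), the JAKs phosphorylate STAT transcription factors, and STATs then switch on genes that include the SOCS family. SOCS proteins bind phosphorylated receptors or JAKs and direct them to ubiquitination, which closes a negative feedback loop. PIM proteins are serine/threonine kinases that are active once made, so that their amount is set largely by transcription and turnover, and they support growth and survival of lymphocytes.

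The mice carried a Foxp3-Cre-YFP reporter and had experimental autoimmune encephalomyelitis (EAE), an immunization model of multiple sclerosis, and all 4 groups share this genotype and immunization, with no unimmunized control among them. Brains were taken without their meninges, and spinal cords likewise dissociated, at day 14 (acute disease) and day 50 (chronic disease). Cells were sorted as TCRβ+ CD11b- CD4+ T cells that were CD44+, a sign of earlier antigen contact, and Foxp3-YFP-, which leaves out regulatory T cells. The assay was CITE-seq, which counts RNA molecules and DNA-tagged antibodies (here to CD69, P2X7R and CXCR6) in the same droplet. Each tissue and day is 1 RNA library, called acute brain, chronic brain, acute cord and chronic cord below. The labels do not give ages or the number of mice behind a library, so no test across animals was possible and every interval below covers counting error only.

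After filtering, the libraries held 10313 (acute brain), 333 (chronic brain), 9270 (acute cord) and 1605 (chronic cord) cells, with 1115291 to 50710551 unique molecular identifiers (UMIs, counted RNA molecules) and medians of 2950 to 4921 UMIs per cell. The chronic brain library is thus by far the thinnest. A UMI of at least 1 of the 8 T cell markers was found in 99.97% to 100% of cells. Foxp3 had 0 to 2 UMIs per library. The 4 dendritic cell markers summed to 77.1 UMIs per 1000000 (CPM) in the chronic brain library, from 86 UMIs in 9 cells, against 8.48 to 11 CPM elsewhere, and Flt3 was at 0 in all 4. Any 2 libraries shared 0 to 33 cell barcodes.

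STAT dimers bind the palindrome TTCNNNGAA, so the windows from 250 bases before to 50 bases after each start site in the RefSeq promoter table (build GRCm38.p6) were searched for it; the motif is its own reverse complement, so 1 search covers both strands. The table held windows for 6 of the 7 members, with 2 start sites for Pim1. Cish held 2 matches and Socs3 held 1, and these 30-base stretches are printed because they are the matches found among the members (capitals mark the motif, 5′ to 3′ on the gene's strand). The Cish stretch is chr9:107296654-107296683 on the plus strand and the Socs3 stretch is chr11:117969502-117969531 on the minus strand.
Cish: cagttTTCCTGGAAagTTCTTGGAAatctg
Socs3: agaaaccagccTTCTTAGAAgggagggggg
The Cish matches begin at positions 1 and 12, counted from the listed start site as 1, and the first of them also has the tighter form TTCCNGGAA. The Socs3 match begins at position -154. That match lies inside the gene span listed for Socs3 below (117966079 to 117970336), which extends beyond the start site used here. Of all 32851 promoter windows, 8.3% held at least 1 match and 0.457% held at least 2. The search as first planned covered only the 250 bases before the start, where Cish held 0 matches and Socs3 held 1. In that part, 7.02% of all windows held at least 1. These letters were not in the windows of Socs1, Pim1, Pim2 and Pim3. A match describes the letters only.

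Cish encodes CIS, a SOCS protein that is induced by STAT5 and limits interleukin 2 and T cell receptor signalling. Its level was 140 CPM (95% Poisson interval 137 to 143) in acute brain, 84.3 CPM (68.1 to 103) in chronic brain, 172 CPM (169 to 176) in acute cord and 65.1 CPM (58.9 to 71.9) in chronic cord. Both day 14 libraries were above both day 50 libraries, and the 2 day 50 intervals overlapped. After thinning each cell to 2000 UMIs, a Cish UMI was found in 20.4%, 11%, 25.8% and 11.3% of cells in the same order, against 34.2%, 19.5%, 48.2% and 17.9% before thinning. Thinning left out 1163, 96, 142 and 127 cells. The sort left no cell type that should lack these genes, so the share that free RNA alone would give was not measured.

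Socs2, a STAT5-induced relative of CIS best known for limiting growth hormone signalling, was at 27.5 CPM (26.0 to 29.0) in acute brain, 32.3 CPM (22.6 to 44.7) in chronic brain, 49.2 CPM (47.3 to 51.1) in acute cord and 29.2 CPM (25.1 to 33.9) in chronic cord. The acute cord library stood above the others, whose intervals overlapped. The chronic brain value rests on 36 UMIs.

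Socs3, which restrains receptors that signal through gp130 and so STAT3, was at 90.8 CPM (88.1 to 93.5) in acute brain, 115 CPM (95.7 to 136) in chronic brain, 41.0 CPM (39.3 to 42.8) in acute cord and 101 CPM (93 to 109) in chronic cord. The acute cord library was the low one. The thinned share of cells with a UMI was 8.05% there and 15.1% to 18.1% in the other libraries, against 15.2% and 25.2% to 25.8% unthinned. Socs1, an inhibitor of JAKs best known for damping interferon gamma signals, was at 85.5 CPM (82.9 to 88.2), 126 CPM (106 to 149), 92.9 CPM (90.3 to 95.6) and 93.1 CPM (85.5 to 101) in the order acute brain, chronic brain, acute cord, chronic cord. The chronic brain library was highest, and the 2 spinal cord intervals overlapped.

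Pim1 was at 742 CPM (734 to 749) in acute brain, 863 CPM (809 to 919) in chronic brain, 336 CPM (331 to 342) in acute cord and 400 CPM (384 to 416) in chronic cord. Both brain libraries lay above both spinal cord libraries, and no 2 of the 4 intervals overlapped. Pim3 was at 53.8 CPM (51.7 to 55.9), 84.3 CPM (68.1 to 103), 22.1 CPM (20.8 to 23.4) and 75.9 CPM (69.1 to 83.2) in the order acute brain, chronic brain, acute cord, chronic cord. As with Socs3, the acute cord library was the low one. In the chronic brain library 2 cells gave 17.0% of the Pim3 UMIs. Pim2 was at 11.9 CPM (10.9 to 12.9), 7.17 CPM (3.10 to 14.1), 10.9 CPM (10.0 to 11.8) and 9.97 CPM (7.61 to 12.8) in that order, all overlapping, and its chronic brain value rests on 8 UMIs in 5 cells. UMIs of this kit count the 3′ ends of transcripts and are not scaled by length, so levels are compared within a gene and not between genes.

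**Figure D1:**
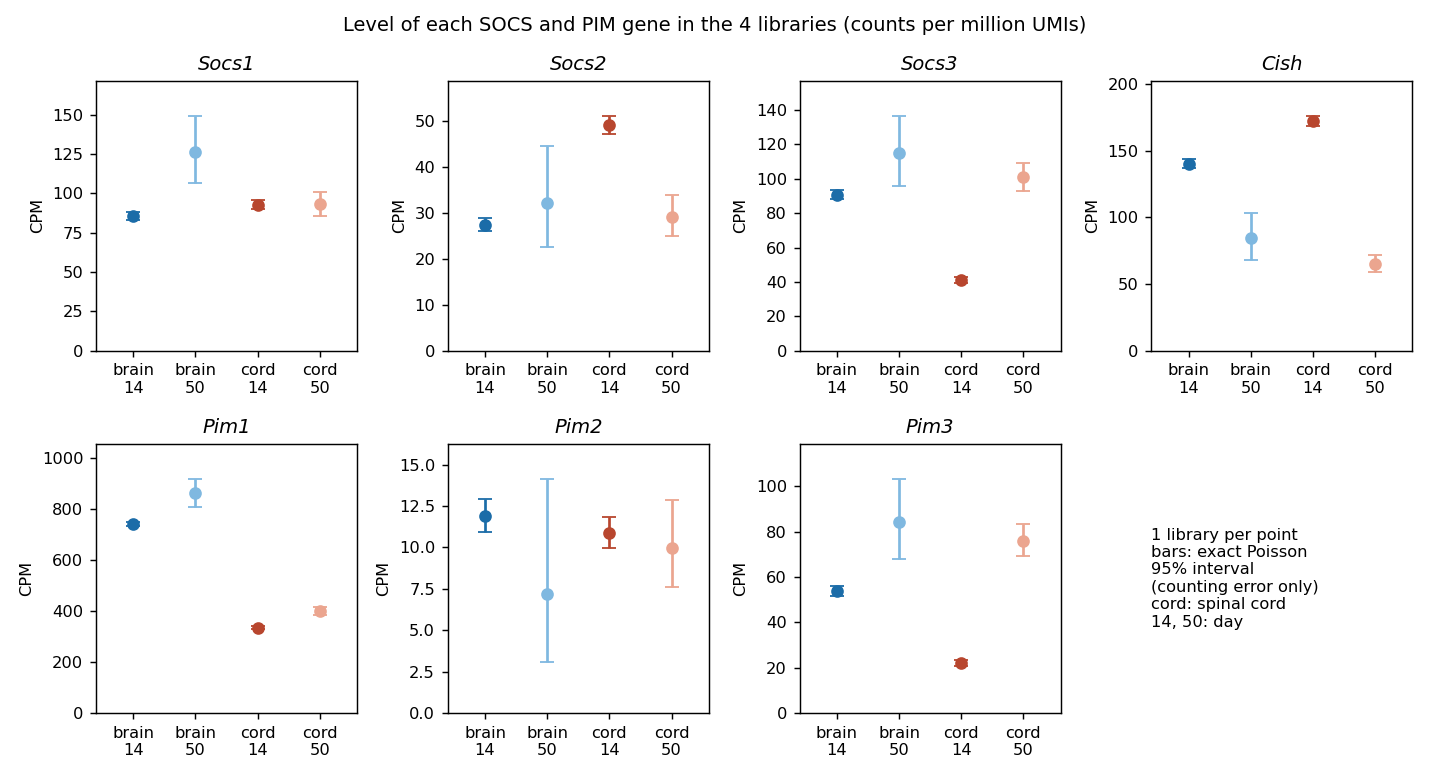
Level of each gene in the 4 libraries, in CPM on axes that start at 0, with 1 point per library and bars for the exact Poisson 95% interval (counting error only). Pim1 was higher in both brain libraries (742 and 863 CPM) than in both spinal cord libraries (336 and 400 CPM), Socs3 and Pim3 were lowest in acute cord, and Cish was higher at day 14 than at day 50 in both tissues.

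The first pair of comparisons asks how these genes differed between acute and chronic disease within a tissue. Ratios of CPM were expressed on the log2 scale relative to the median ratio of all genes compared, and a gene was called higher or lower where it differed from that median by at least 1.5-fold and the exact 95% interval excluded 0. A difference in a summed level can come from a different mix of cells or from a different level per cell, and these cannot be told apart from the sums.

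In spinal cord, Pim3 (log2 ratio 2.11, interval 1.95 to 2.27) and Socs3 (1.63, 1.5 to 1.76) were called higher and Cish (-1.07, -1.22 to -0.93) was called lower at day 50 than at day 14. That is 3 of 7 members, where 23.1% of the 13170 genes compared were called (12.8% higher, 10.3% lower), so a call as such was common in this comparison. Pim1 had a log2 ratio of 0.58 (0.52 to 0.64), just short of the threshold. Socs1 (0.33), Pim2 (0.20) and Socs2 (-0.42) were not called. The median of all genes was itself at -0.33, and without subtracting it Socs2 was called lower at -0.75 while Socs1 was level at 0.00188.

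In brain, Pim3 (0.79, 0.47 to 1.08) and Socs1 (0.70, 0.45 to 0.94) were called higher at day 50 and Cish (-0.59, -0.90 to -0.30) was called lower, against 10.2% of 12802 genes (7.13% higher, 3.1% lower). Both smaller calls depend on the processing. Socs1 was at 0.56 and not called without subtracting the median, and at 0.54 and not called with the form of the median computed first, which was replaced after the members' ratios had been seen. Cish sat at the threshold and lost its call under 7 of 14 alternatives, among them the doublet calls of the random seed used first (-0.56), although its ratio was negative under all 14 (-1.51 to -0.31). Socs3 (0.48), Socs2 (0.37), Pim1 (0.36) and Pim2 (-0.59) were not called, but Pim2 was called lower under 3 alternatives (-1.57 to -0.79). The median of the 7 members was 0.37 in brain and 0.33 in spinal cord, where the median of all genes is 0 by construction.

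The second pair of comparisons sets spinal cord against brain on the same day. At day 14, Pim3 (-1.48, -1.59 to -1.38), Socs3 (-1.35, -1.42 to -1.27) and Pim1 (-1.34, -1.37 to -1.31) were called lower in spinal cord and Socs2 (0.64, 0.54 to 0.74) was called higher. These 4 of 7 members compare with 12.6% of 13868 genes called (6.4% higher, 6.24% lower). Cish (0.10), Socs1 (-0.08) and Pim2 (-0.33) were not called. The Socs2 call was lost, at 0.53 and 0.58, with cells thinned to 2000 UMIs and without the cells richest in immediate-early transcripts.

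At day 50 only Pim1 (-1.14, -1.25 to -1.03) was called, lower in spinal cord, against 6.87% of 10279 genes called (2.09% higher, 4.78% lower). Socs3 (-0.22, -0.50 to 0.07) and Pim3 (-0.18, -0.51 to 0.15), both called lower in spinal cord at day 14, were not called here. Socs1 (-0.47), Cish (-0.40), Socs2 (-0.17) and Pim2 (0.44) were not called either. The members' median was -0.33 at day 14 and -0.22 at day 50. These 4 comparisons share libraries, so a low value in the acute cord library enters both the spinal cord time comparison and the day 14 tissue comparison. Differences between comparisons were not tested.

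**Figure D2:**
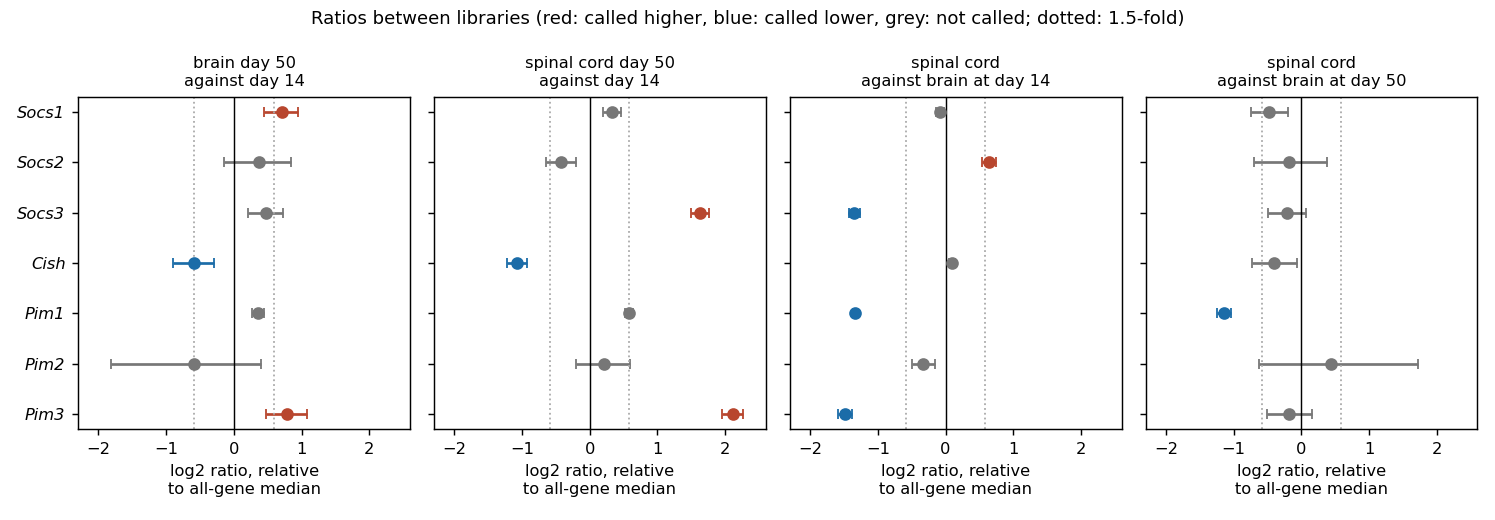
Log2 ratios of the 7 genes in the 4 comparisons, relative to the median of all genes compared, with exact 95% intervals (counting error only) and dotted lines at 1.5-fold. Pim3 and Socs3 were highest in the spinal cord time comparison (2.11 and 1.63), and Pim1 was the gene called lower in spinal cord on both days (-1.34 and -1.14).

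Immediate-early genes, which respond within minutes to stimulation and also to tissue dissociation, were lower in acute cord than elsewhere, as Socs3 and Pim3 were. The 14 genes of this list summed to 6797 CPM in acute brain, 12003 in chronic brain, 3964 in acute cord and 7781 in chronic cord, and 10 of 14 were called lower in spinal cord than in brain at day 14 (median -1.0). Junb, a member of the AP-1 transcription factor family, was at 2728 CPM in brain and 1229 CPM in spinal cord on that day. At day 50, 11 of the 14 were called lower in spinal cord than in brain (median -1.03), whereas Socs3 and Pim3 were not called. Over time, 13 of 14 were called higher in brain, and 9 higher and 1 lower in spinal cord. Cells in the top 25% by immediate-early share made up 35.9%, 67.3%, 8.66% and 40.6% of the libraries in the order acute brain, chronic brain, acute cord, chronic cord. Without them the day 14 tissue ratios were -1.3 for Pim3, -1.21 for Pim1 and -1.01 for Socs3, all still called, and the spinal cord time ratios were 1.92 for Pim3, 1.69 for Socs3 and -1.43 for Cish, also still called. In brain over time, Cish was then at -1.51 and Socs3 at 1.01, both called, while Pim3 was at 0.60 with an interval of -0.04 to 1.18 and not called. The part of handling in these differences was not tested. Glial markers summed to 50.5, 45.7, 75.8 and 52.2 CPM in the same order of libraries, highest in acute cord.

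Among 4677 other genes of at least 20 CPM, those whose levels over the 4 libraries were most like each member's were found by the largest difference between centred log2 CPM. With 4 points, many genes can match closely, and the lists are descriptions. For Socs3 they were Tnfaip3, an inhibitor of NF-κB signalling (largest difference 0.07), and Ppp1r15a, a stress response gene (0.17). For Pim1 they were Nfkbia (0.13) and Nfkbiz (0.15), both of the IκB family. For Pim3 they were Csrnp1 (0.09) and Junb (0.13). For Cish they were Lgals1, which encodes galectin-1 (0.08), and Ramp1, part of the receptor for the neuropeptide CGRP (0.11). Socs2 was matched by Cd226 and Dock10, Socs1 by Znrd1 and Ing4, and Pim2 by Pih1d1 and Tigd2. The member most like Socs3 was Pim3 (0.27), whereas Cish and Socs2 differed by 0.67.

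**Figure D3:**
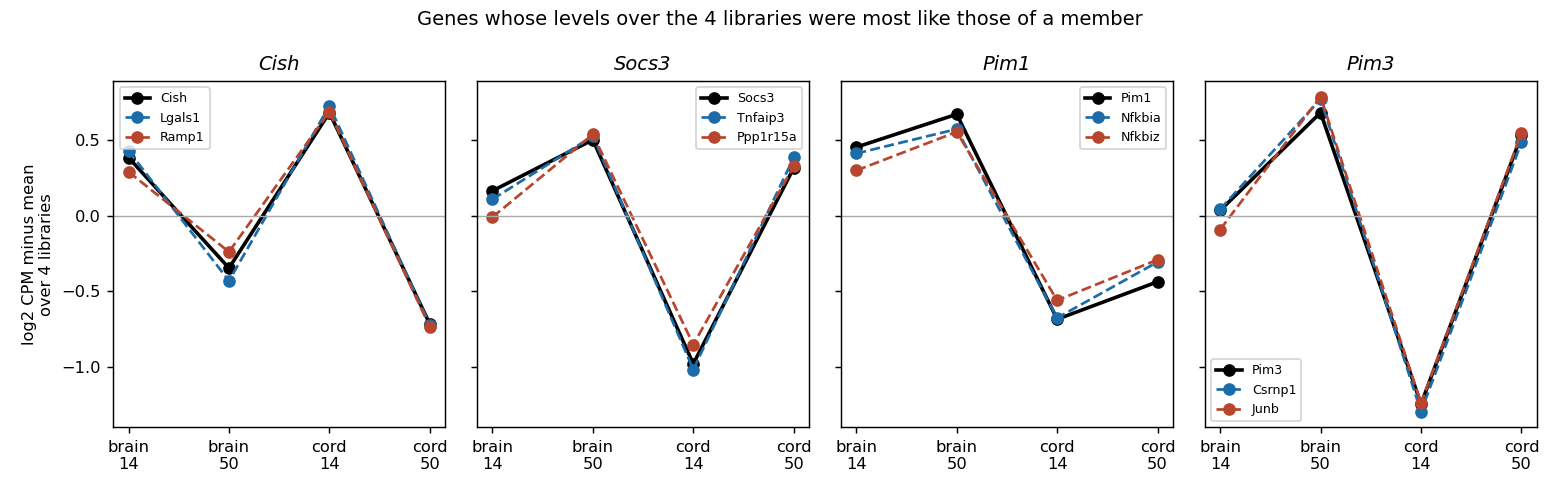
Log2 CPM minus its mean over the 4 libraries for Cish, Socs3, Pim1 and Pim3 (black) and the 2 genes closest to each (coloured), 1 point per library and no error bars. The pairs differ from the member by at most 0.17 in any library.

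The other genes of the pathway were read from fixed lists. Of 11 JAK and STAT genes, none was called in brain over time or between tissues at day 14, 1 was called lower in spinal cord over time, and Stat5a was called lower in spinal cord than in brain at day 50 (13.1 against 24.2 CPM, log2 ratio -0.92, from 79 and 27 UMIs). None of the 6 SOCS box partners measured, which link SOCS proteins to the ubiquitin machinery, was called in any comparison. Of 12 other inhibitors of cytokine signalling, 1 was called higher and 1 lower in spinal cord over time: Socs7 (0.65) and Ptpn1, a tyrosine phosphatase (-0.71). Socs4 (0.71) and Socs5 (0.84) were called higher in spinal cord than in brain at day 14.

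Of 20 cytokine receptor genes, 4 were called higher and 1 lower in brain over time, and 10 higher and 3 lower in spinal cord over time. The lower gene in brain was Il2ra, the high-affinity subunit of the interleukin 2 receptor and itself a STAT5 target. Il2ra was at 28.9 CPM in acute brain, 10.8 in chronic brain, 52.1 in acute cord and 12.5 in chronic cord. It was thus low in both day 50 libraries, as Cish was, with log2 ratios over time of -1.29 in brain (12 UMIs at day 50) and -1.73 in spinal cord. Ifngr2, a subunit of the interferon gamma receptor, was called higher over time in both tissues (1.3 and 2.22), as was Il10ra (1.39 and 1.93). Between tissues, 3 receptors were called higher and 4 lower in spinal cord at day 14, and none at day 50.

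Among cytokine genes, Il2, the ligand of the receptor above, was called higher in chronic brain (37.5 to 78.0 CPM, 1.20). Il2 was also called higher over time in spinal cord (0.93, interval 0.72 to 1.14). Csf2, which encodes GM-CSF, was called lower in spinal cord (55.0 to 12.1 CPM, -1.85). In spinal cord over time, 4 of the 10 cytokine genes compared were called higher, among them Il10 (0.927 to 2.99 CPM, 2.02), and 3 lower, and in brain 2 were called higher and none lower. Of 15 genes of the interleukin 2 and STAT5 list, 4 were called higher and 1 lower in brain over time, and 4 higher and 2 lower in spinal cord. The lower genes in spinal cord were Il2ra and Osm (-1.91, 9 UMIs at day 50), and Ctla4, an inhibitory receptor, was called higher (1.56). In the STAT3-linked list of 9 genes, spinal cord over time had 1 called higher, Junb (2.12), and 4 lower, among them Il23r, a receptor subunit of the Th17 programme (7.26 to 2.16 CPM, -1.42). In the 10-gene interferon response list, brain over time had 1 gene called higher, Isg15 (0.59), and none lower. Spinal cord over time had 2 called higher, Isg15 (1.07) and Ifit3 (1.09), and 3 lower, among them Igtp (-0.66), with a list median of -0.30. Between tissues, this list had 2 genes at day 14 and 3 at day 50 called lower in spinal cord, with none higher. Among 11 PIM substrates, Cdkn1a, a cell cycle inhibitor, was called higher over time in brain (0.82) and spinal cord (0.96) and lower in spinal cord than brain at day 14 (-1.02) and day 50 (-0.90).

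The members were then compared within each library, between cells with and without a UMI of a state marker, so that both classes share handling. Cells with a marker UMI often had more UMIs in all, for example medians of 5842 against 3868 for Il2ra in acute brain. Each class comparison was therefore repeated after thinning all cells to 2000 UMIs. The shares of all genes called that are given with these classes are from before thinning. Cish and Socs2 were higher and Socs3 lower in cells with an Il2ra UMI. Cish was at 240 against 124 CPM in acute brain, 233 against 153 CPM in acute cord and 116 against 61.8 CPM in chronic cord. Socs2 was at 48.8 against 24, 74.7 against 41.2 and 72.9 against 26.4 CPM in the same libraries. Socs3 was at 44.5 against 98.3, 24.3 against 46.2 and 54.0 against 104 CPM. All 3 genes were called in all 3 libraries with at least 20 such cells, where 6.1%, 3.95% and 3.59% of genes were called higher and 3.93%, 2.59% and 1.35% lower. After thinning, Cish and Socs2 were called in all 3 and Socs3 in 2 of 3. In spinal cord, Cish was lower at day 50 among cells without an Il2ra UMI too (153 and 61.8 CPM). A cell without a UMI of a marker can still carry its transcript, here and for the markers below. Whether the mix of cells within a class differed between days was not tested.

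CXCR6 is a chemokine receptor found on tissue-resident T cells. Socs3 was lower in cells with a Cxcr6 UMI in all 4 libraries, at 58.6 against 152 CPM in acute brain, 59.5 against 180 in chronic brain, 30.4 against 94.7 in acute cord and 69.3 against 140 in chronic cord. The log2 ratios ran from -1.64 to -1.02, where 5.67%, 3.37%, 4.96% and 3.06% of genes were called lower. After thinning, 3 of 4 libraries were called. Socs2 was called higher in all 4 libraries but in 1 of 4 after thinning, and Cish in 2 of 4 both ways, where 6.02%, 3.77%, 3.44% and 2.68% of genes were called higher. Socs3 showed the reverse with Klf2, a transcription factor of recirculating T cells: it was at 129 against 59.7, 178 against 75.4, 71.2 against 28.3 and 166 against 86.8 CPM in the order acute brain, chronic brain, acute cord, chronic cord. It was called higher in Klf2+ cells in all 4 libraries (3.8%, 3.19%, 3.73% and 3.18% of genes were), and in 3 of 4 after thinning. With Tcf7, a factor of memory and stem-like T cells, Socs3 was called higher in 3 of 4 libraries and Socs2 lower in 3 of 4, both before and after thinning. Of all genes, 4.46%, 2.81%, 3.79% and 2.25% were called higher with Tcf7 and 5.44%, 2.51%, 4.13% and 2.3% lower. In spinal cord the Socs3 level was higher at day 50 than at day 14 in cells with and without Klf2 and with and without Cxcr6.

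Cytokine transcripts differed in how the members went with them. Cish was called higher in all 3 libraries with enough cells carrying a Csf2 UMI (log2 ratios 0.75 to 1.06, against 5.73%, 5.03% and 3.39% of genes), and Socs3 was called lower in all 3 (-1.29 to -1.15, against 5.18%, 4.38% and 0.82%). After thinning, Cish was called in all 3 and Socs3 in 2 of 3. With Il17a, Cish was called higher in 3 of 4 libraries and so was Pim3 (against 4.23%, 7.36%, 4.45% and 5.42% of genes). Pim3 was at 70.5 against 51.7, 248 against 57.4, 32.8 against 21.1 and 139 against 73.5 CPM in the order acute brain, chronic brain, acute cord, chronic cord, the second of these from 38 cells with Il17a. Socs3 with Il17a ran from -2.33 to -0.05 over the 4 libraries. After thinning it ran from -1.09 to -0.59 in the 3 that could be compared. With Ifng, Cish ran from 0.08 to 0.56 over the 4 libraries and Socs3 from -0.91 to -0.51. With Il22, in 2 libraries, Cish ran from 0.03 to 0.27 and Socs3 from -0.15 to 0.20.

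Gzmk and Eomes mark cytotoxic-type T cells. Cish was called lower in Gzmk+ cells in all 4 libraries (-1.31 to -0.64, against 4.34%, 3.03%, 3.88% and 5.01% of genes) and in 3 of 4 after thinning. Pim1 in Gzmk+ against other cells was at 525 against 768, 359 against 958, 264 against 341 and 192 against 466 CPM in the order acute brain, chronic brain, acute cord, chronic cord. The 2 day 50 libraries were called (-1.40 and -1.29), and the 2 day 14 libraries were not (-0.54 and -0.36). After thinning, acute brain was called lower too (-0.67), which makes 3 of 4. In spinal cord, the CPM of Pim1 was thus higher at day 50 than at day 14 among cells without Gzmk and lower among cells with it. These are CPM before subtraction of an all-gene median, which was -0.33 for all cells in the spinal cord time comparison. No interval was computed for this contrast, and it was not tested. Those with Gzmk were 550 of 9270 cells at day 14 and 428 of 1605 at day 50. For Eomes, Pim1 was called lower in 3 of 4 libraries (against 3.72%, 1.83%, 2.5% and 3.24% of genes), but in 1 of the 3 that could be compared after thinning. Cish with Eomes was called lower in 2 of 4 (-1.46 to -0.50), and in 1 of 3 after thinning.

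For 5 other markers the Socs3 and Cish ratios are given by their range over the libraries with enough cells, before and after thinning. With Egr2, which responds to T cell receptor signals, Socs3 ran from -1.93 to -1.15 (thinned -2.86 to -0.80) and Cish from 0.42 to 2.02 (thinned 0.55 to 0.76). With Mki67, a marker of dividing cells, Socs3 ran from -1.1 to -0.36 (thinned -1.23 to -0.71) and Cish from -1.62 to 0.16 (thinned 0.08 to 0.37). With Il7r, a receptor of long-lived T cells, Socs3 ran from 0.31 to 0.78, but from -0.36 to 1.13 after thinning, chronic brain being the negative one. Cish with Il7r ran from -0.09 to 0.51 (thinned -0.29 to 0.33). With Fos, Socs3 ran from -0.07 to 0.65 (thinned -0.21 to 0.90) and Cish from 0.08 to 1.51 (thinned 0.06 to 2.38). With Isg15, Socs3 ran from -0.03 to 0.32 (thinned 0.02 to 0.68) and Cish from -0.13 to 0.03 (thinned -0.23 to 0.20). Thinning left 2 libraries for Egr2 and Mki67.

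**Figure D4:**
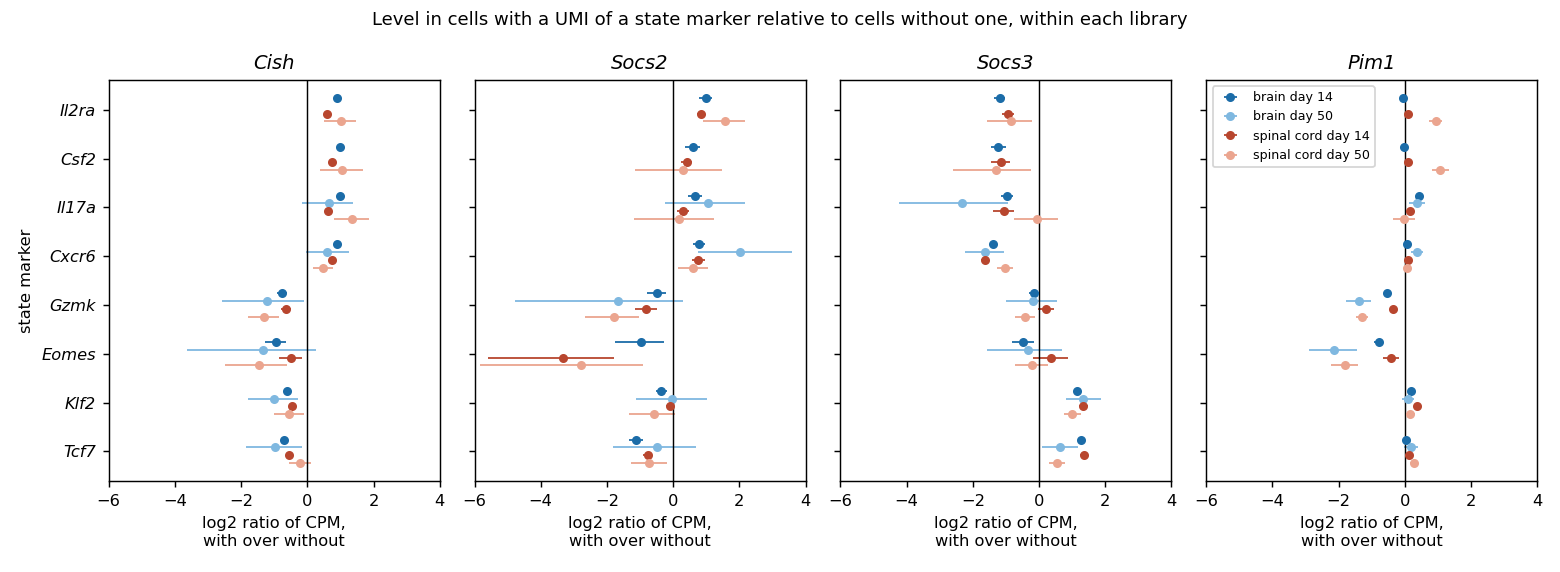
Log2 ratio of CPM in cells with against without a UMI of each marker, relative to the all-gene median, for Cish, Socs2, Socs3 and Pim1, with 1 point per library and exact 95% intervals (counting error only); classes under 20 cells and genes at 0 UMIs in a class are left out. Socs3 lies to the left for Il2ra, Csf2 and Cxcr6 and to the right for Klf2 and Tcf7, and Cish lies to the right for Il2ra, Csf2, Il17a and Cxcr6.

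The surface proteins gave a readout that does not come from RNA. Of the 3 antibody features, those with the identifiers P2X7R and CXCR6 carry the names CD3_TotalA and CD16_TotalA in the deposited feature lists, which are names of other antibodies. The identifiers match the antibodies given in the labels and are used here, but the mismatch could not be settled from the files. Groups were cut at the 25% limits and kept all tied cells, so some held more than 25%. For P2X7R in acute brain, the bottom group by raw UMIs held 3835 of 10313 cells. Cells in the top 25% by CXCR6 antibody UMIs were compared with the bottom 25% of the same library. Cish was at 183 against 64.5 CPM in acute brain, 123 against 51.4 in chronic brain, 196 against 129 in acute cord and 85.6 against 33.8 in chronic cord. It was called higher in all 4 libraries (log2 ratios 0.60 to 1.51), where 6.74%, 5.0%, 3.43% and 4.42% of genes were called higher. Socs3 was at 61.4 against 168, 67.9 against 233, 29.3 against 77.2 and 82.3 against 161 CPM in the same order and was called lower in all 4 (-1.79 to -0.98), where 6.72%, 3.8%, 4.78% and 4.99% of genes were called lower. Socs2 was called higher in 3 of 4. The top cells also had more RNA, with medians of 5134 against 2838 UMIs in acute brain. Ranked by antibody UMIs per RNA UMI, Socs3 was called in all 4 libraries, Cish in 3 and Socs2 in 2. In chronic brain the bottom group was the same by either ranking, 87 cells with 0 CXCR6 UMIs. There the ranking per RNA UMI did not even out depth, with medians of 2808.5 RNA UMIs in the top and 2010 in the bottom group. By that ranking, 12.4%, 9.16%, 9.3% and 9.48% of genes were called in either direction.

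CD69, a retention and activation receptor, gave the same directions. Cish was called higher in the top 25% of all 4 libraries (0.62 to 1.43, against 5.65%, 4.3%, 7.28% and 3.95% of genes). Socs3 was called lower in all 4 (-1.81 to -1.21, against 4.09%, 3.67%, 4.85% and 3.68%). Per RNA UMI, each was called in 3 of 4, where 7.11%, 6.96%, 7.14% and 7.15% of genes were called in either direction. In chronic brain the bottom group was again the same by either ranking, 118 cells with 0 CD69 UMIs. P2X7R, the receptor for extracellular ATP, gave no call among the 7 members at day 14 by raw antibody UMIs. Over the 4 libraries, 3.49%, 2.83%, 4.82% and 4.39% of genes were called higher with P2X7R and 2.13%, 3.19%, 2.64% and 4.39% lower. In chronic cord its top 25% had 542 against 197 CPM of Pim1 (1.53), 43.7 against 12.9 of Socs2 (1.84), 85.8 against 44.3 of Cish (1.03) and 81.5 against 52.9 of Pim3 (0.70), all called higher. Per RNA UMI, Pim1 (1.41), Socs2 (1.74) and Cish (1.06) kept their calls and Pim3 (0.44) did not. In chronic brain Cish was called higher by raw UMIs (0.81) and per RNA UMI (0.95), whereas Socs3 was called lower by raw UMIs (-0.92) but not per RNA UMI (-0.42). The bottom group there was the same by either ranking, 124 cells with 0 P2X7R UMIs. Per RNA UMI, Pim3 was called higher in acute brain (0.63) and chronic brain (0.87). By that ranking, 7.39%, 5.72%, 6.59% and 7.77% of genes were called with P2X7R in either direction over the 4 libraries. Pim1 was called with P2X7R in chronic cord alone of the 4 libraries, by either ranking. With CXCR6, Pim1 was also called higher, in chronic cord by raw UMIs (0.70) and in acute brain per RNA UMI (0.70).

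**Figure D5:**
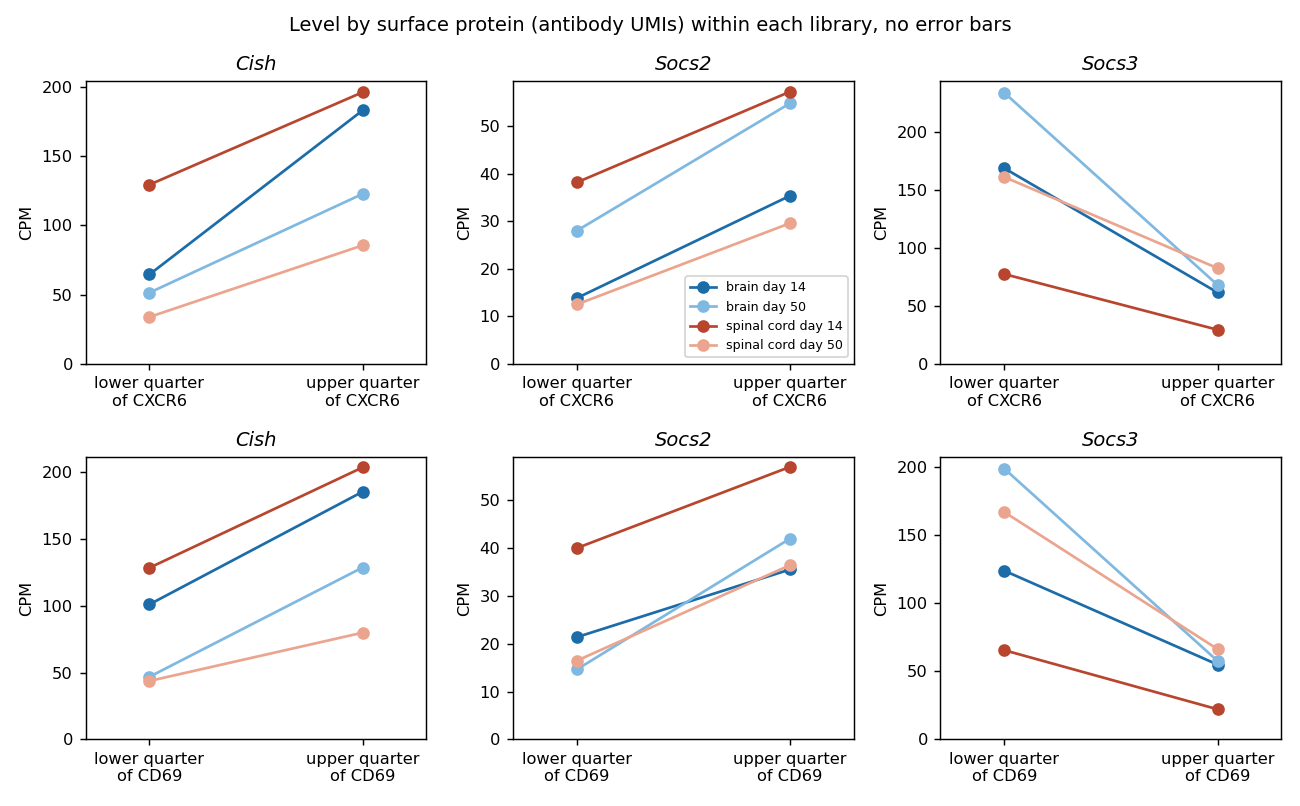
CPM of Cish, Socs2 and Socs3 in the bottom and top 25% of cells (tied cells kept) by CXCR6 (top) and CD69 (bottom) antibody UMIs, 1 line per library, on axes that start at 0 and without error bars. Socs3 is lower and Cish higher in the top than in the bottom 25% in all 4 libraries for both proteins.

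Detection in the same cell was read after thinning to 2000 UMIs. Socs2 and Cish were found together 1.73, 1.95, 1.31 and 1.74 times as often as the product of their shares, from 158, 3, 244 and 12 cells in the order acute brain, chronic brain, acute cord, chronic cord. Socs2 and Socs3 were found together 0.487, 1.18, 0.79 and 0.804 times as often, from 33, 3, 46 and 8 cells. The chronic brain values of these Socs2 pairs rest on 3 cells each and are imprecise. Socs3 and Cish were found together 0.732, 1.27, 0.855 and 0.808 times as often, from 207, 6, 162 and 22 cells. For Cish and Pim1 the values were 1.10, 1.32, 1.11 and 1.40. The remaining pairs are not given here. At least 3 of the 7 members were detected in 10.6%, 9.28%, 7.46% and 6.43% of cells, and none in 18.5%, 21.1%, 30.7% and 35.3%.

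The members lie on 7 chromosomes (GRCm38.p6): Socs1 on 16 (10783808 to 10785536), Socs2 on 10 (95383903 to 95417321), Socs3 on 11 (117966079 to 117970336), Cish on 9 (107296659 to 107302784), Pim1 on 17 (29490785 to 29496111), Pim2 on X (7878306 to 7883432) and Pim3 on 15 (88862194 to 88865726).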

How the data were processed

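The authors deposited raw counts of UMIs for every gene and cell barcode, made with Cell Ranger 6.1.1 on mm10 per the submitters' processing notes. Antibody features were read by their identifiers, since P2X7R and CXCR6 carry names of other antibodies. Cells needed 500 or more genes detected and no more than 10% of UMIs from mitochondrial genes. Scrublet (scanpy 1.11.5) removed 15 doublets in each day 50 library and called 0 at day 14, where it is taken not to have worked. Its seed was changed after a first run had called 5 and 13. Counts were summed per library, scaled to CPM and compared by exact conditional binomial intervals (scipy 1.17.1) for genes with at least 10 UMIs over both libraries. In the all-gene median, genes at 0 in 1 library stay beyond every other value. A first form set them to a floor of 3 counts and was replaced after the members' ratios had been seen. Shares were thinned to 2000 UMIs. Code was tested on simulated data. Alternatives included TMM factors (edgeR 4.0.16). The members, lists and markers were chosen with earlier results of these data known. Named were all members, up to 4 called genes per list and comparison by distance of the interval from 0, and the 2 genes most like each member. Il2 in spinal cord over time was named in addition. Results of 2 listed genes are not reported here.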

Additional observations from a re-analysis of the deposited data

Results flagged for a closer look

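Some members had ratios of opposite sign in the 2 tissues or on the 2 days; these differences were not tested. For day 50 against day 14, Socs2 was at 0.37 in brain and -0.42 in spinal cord, and Pim2 at -0.59 in brain and 0.20 in spinal cord (log2, relative to the all-gene median). For spinal cord against brain, Socs2 was at 0.64 at day 14 and -0.17 at day 50, Cish at 0.10 and -0.40, and Pim2 at -0.33 and 0.44. Of these 10 values only Socs2 at day 14 was called, and the intervals of Pim2 included 0 in 3 of the 4 comparisons.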

How the results depend on the processing

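Each ratio was recomputed under 14 alternatives, of which 4 were added after seeing the data: the median of genes at 50 CPM or more, leaving out cells with a barcode shared between libraries, the first form of the all-gene median and the first doublet seed. No called member changed sign. The number of members called was 3 in brain over time and became 5 without the 2 cells richest in each gene. Leaving those cells out also moved the subtracted all-gene median in brain from -0.14 to -0.47. The share of all genes called in that setting is not given here. The number called in brain fell to 2 without subtracting the median (Socs1 lost). It was also 2 with the stricter cell filter, with no doublet removal and without cycling cells (Cish lost in each). Between tissues at day 50 the number called was 1. It became 2 without the 2 richest cells (median 0.17 in place of 0.03) and 2 without cycling cells. Socs1 was added in both (-0.60 and -0.59). With the first form of the median, which is 0.02 in place of -0.14 in brain, 2 members were called in brain, Socs1 dropping out at 0.54. With the first doublet seed 3 were called there, but Cish (-0.56) dropped out and Pim2 (-1.32) came in. In spinal cord over time Pim1 was called under 3 alternatives (0.62 to 0.69). Depth limits the brain day 50 library most, at 333 cells. No paired analysis was possible because every tissue and day has a single library.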
